A study of Mus musculus with 9 samples.

Results

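The genes described here encode the potassium channels that set the resting potential of a neuron and the pauses between its spikes: inward rectifiers, two-pore leak channels, calcium-activated BK and SK channels and sodium-activated channels. They were all genes whose annotation symbol, naming 1 gene, begins with Kcnj, Kcnk, Kcnma, Kcnmb, Kcnn, Kcnt or Kcnu and goes on with a number, and there were 40 of them among 18193 genes. Of the 40, 15 were inward rectifiers, 12 two-pore leak channels, 6 BK subunits or transcripts opposite to one, 4 SK or IK channels, 2 sodium-activated channels and 1 the sperm channel Slo3. Where a gene had several probe sets, the one of highest mean intensity across all arrays was read. The symbol rule also took in Kcnmb4os1 and Kcnmb4os2, which are named for the strand opposite Kcnmb4 and encode no channel subunit.

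The study measured motor neurons of wild-type male C57BL/6J mice at postnatal day 7, with no treatment. Cells were cut by laser from frozen sections stained with cresyl violet, and their RNA was amplified before hybridisation to Affymetrix Mouse Genome 430 2.0 arrays. The 3 groups were motor neurons of the lumbar spinal cord at the L5 level (L5), of the oculomotor nucleus in the midbrain (OMN) and of the dorsolateral nucleus at the L6 level (DL), with 3 arrays each, and the groups share strain, sex, age and genotype. The labels call the 3 arrays of a pool biological replicates, and the design text says that each of 3 animals gave cells of all 3 pools. The labels do not divide the L5 cells by target muscle and, apart from the stain, give no criterion for telling motor neurons from other cells.

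Inward rectifiers pass potassium more readily into the cell than out of it. Some are open at rest, the GIRK channels (Kir3) open when a G protein releases its beta-gamma dimer, and the KATP channels close when ATP is plentiful. Two-pore channels carry the leak current, and in motor neurons transmitters that act through Gq receptors close the acid-sensitive TASK type and so make the cells more excitable. BK and SK channels open with calcium that enters during a spike: BK channels shorten the spike, and SK channels carry the afterhyperpolarisation that limits firing rate.

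Values are the deposited intensities, which are linear, in arbitrary units and scaled to the same trimmed mean on every array. They compare 1 gene between pools and not 1 gene with another, since probe sets differ in brightness. Bacterial control transcripts that had not been added never read above 18.3 on their 27 probe sets, and 18.3 was taken as the noise level. Differences are of log2(intensity + 16), first pool minus second, with the standard error (SE) of a limma fit over all 9 arrays, and a gene is called higher or lower at a Benjamini-Hochberg adjusted p under 0.05 over all 18193 genes. In RNA from captured cells, fewer cells of a type and less RNA per cell cannot be told apart.

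Between 67.0% and 71.5% of genes exceeded the noise level on each array. Of the motor neuron markers, the transporters Slc18a3 and Slc5a7, the receptor Ret and the filament gene Prph were above noise on every array, whereas the probe set for Chat, the enzyme that makes acetylcholine, passed noise on 4 of 9 arrays and Mnx1 was at or below noise on all OMN arrays. The transcription factor Isl1 had mean intensities of 598 in L5, 2129 in OMN and 2717 in DL. Summed over 8 motor neuron markers, the L5 arrays gave 20465 to 23699, the OMN arrays 15451 to 17380 and the DL arrays 17694 to 20558. Such a sum leans on its brightest probe sets. Prph was the brightest here in each pool, with means of 10257 in L5, 4844 in OMN and 8626 in DL. Between L5 and OMN 2 of the 8 were called higher and 1 lower, between L5 and DL 1 was called lower, and between DL and OMN 2 were called higher. DL arrays were the least alike (r 0.948 to 0.954 over log2 values of all genes, against 0.973 to 0.979 within L5 and within OMN). The 3′ to 5′ ratio of the Gapdh control probe sets, a measure of RNA integrity, was 3.27 and 3.75 on DL arrays 1 and 3 and 2.33 to 2.67 on the other arrays. The same ratio for actin was 0.934, 0.807 and 0.995 on DL arrays 1 to 3 and 0.900 to 0.934 on the L5 and OMN arrays, so that it did not set DL array 1 apart. Markers of other cells also differed between pools. The summed intensity of 11 oligodendrocyte markers was 23788 to 26305 in DL, 17936 to 18916 in L5 and 14793 to 16335 in OMN, with all 11 above noise on every array and 3 of 11 called higher in DL than in each other pool. Olig1 and Olig2 of this list went the other way without being called. Their means were 1195 and 97.9 in DL, 1537 and 191 in L5 and 1803 and 238 in OMN. The sum of 4 inhibitory interneuron markers was 5017 to 5875 in DL and 1628 to 2674 in the others, with 2 of 4 called higher in DL in each comparison. Between L5 and OMN 1 of the 4 was called higher and 2 lower. Slc6a5 had means of 551 in L5 and 22.6 in OMN, and Gad2 had 269 in L5 and 1312 in OMN. The sum of 2 excitatory interneuron markers was highest in OMN, at 970 to 1220, with 404 to 512 in L5 and 150 to 297 in DL. Of these, the glutamate transporter Slc17a6 was called in all 3 comparisons and Slc17a7 was above noise on no array. Over all genes the shares called were 2.17% between L5 and OMN, 2.55% between L5 and DL and 3.02% between DL and OMN. The part of these cell markers in the differences below was not tested. For RNA integrity, the Gapdh ratio was added to the fit as an alternative, and fewer of the channel genes were then called in both comparisons with DL. Since the high ratios lay on DL arrays, the ratio and the pool cannot be fully told apart.

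Of the 40 genes, 19 exceeded noise on all 9 arrays, 17 on some and 4 on none. Those at or below noise throughout were Kcnj15, Kcnk5, Kcnk6 and Kcnmb4os1. All 3 arrays were above noise for 21 genes in L5, 24 in OMN and 20 in DL. 9 genes were called in at least 1 comparison, and the rest of the text takes them by family.

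Between L5 and OMN, 4 of the 40 genes were called, against 2.17% of all genes. Kcnj14 was higher in L5 (0.945% of all genes were called higher), and Kcnj5, Kcnmb2 and Kcnn1 were lower (1.22% of all genes). The arrays of both pools did not overlap for 15 of the 40, against 27.4% of all genes. Between L5 and DL 5 were called, against 2.55% of all genes. Kcnj12, Kcnj14, Kcnk3 and Kcnn2 were higher in L5 (1.28% of all genes) and Kcnj5 was lower (1.28%). Here 9 did not overlap, against 23.5% of all genes, so that this share did not stand above the background.

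Between DL and OMN 4 were called, against 3.02% of all genes. Kcnk1, Kcnmb2, Kcnn1 and Kcnt1 were lower in DL (1.65% of all genes). None was called higher by limma (1.37% of all genes), while 3 were higher and 12 lower at an unadjusted p under 0.05. The share of all genes past that unadjusted threshold was not counted, here or for the unadjusted counts below, so that these counts have no background. The arrays did not overlap for 14, against 21.1% of all genes. The median difference of the 40 genes was 0.04 between L5 and OMN (all genes 0.01), 0.04 between L5 and DL (all genes 0.06) and -0.23 between DL and OMN (all genes -0.04). The median size of a difference, sign left aside, was 0.41, 0.50 and 0.44 in the same order, against 0.29, 0.31 and 0.27 over all genes. The comparisons share arrays and are not independent. Centring each array on its median gave counts of 4, 4 and 1 for these genes in place of 4, 5 and 4, and moved the share of higher calls over all genes from 50% to 39.6% between L5 and DL and from 45.3% to 60.7% between DL and OMN.

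**Figure D1:**
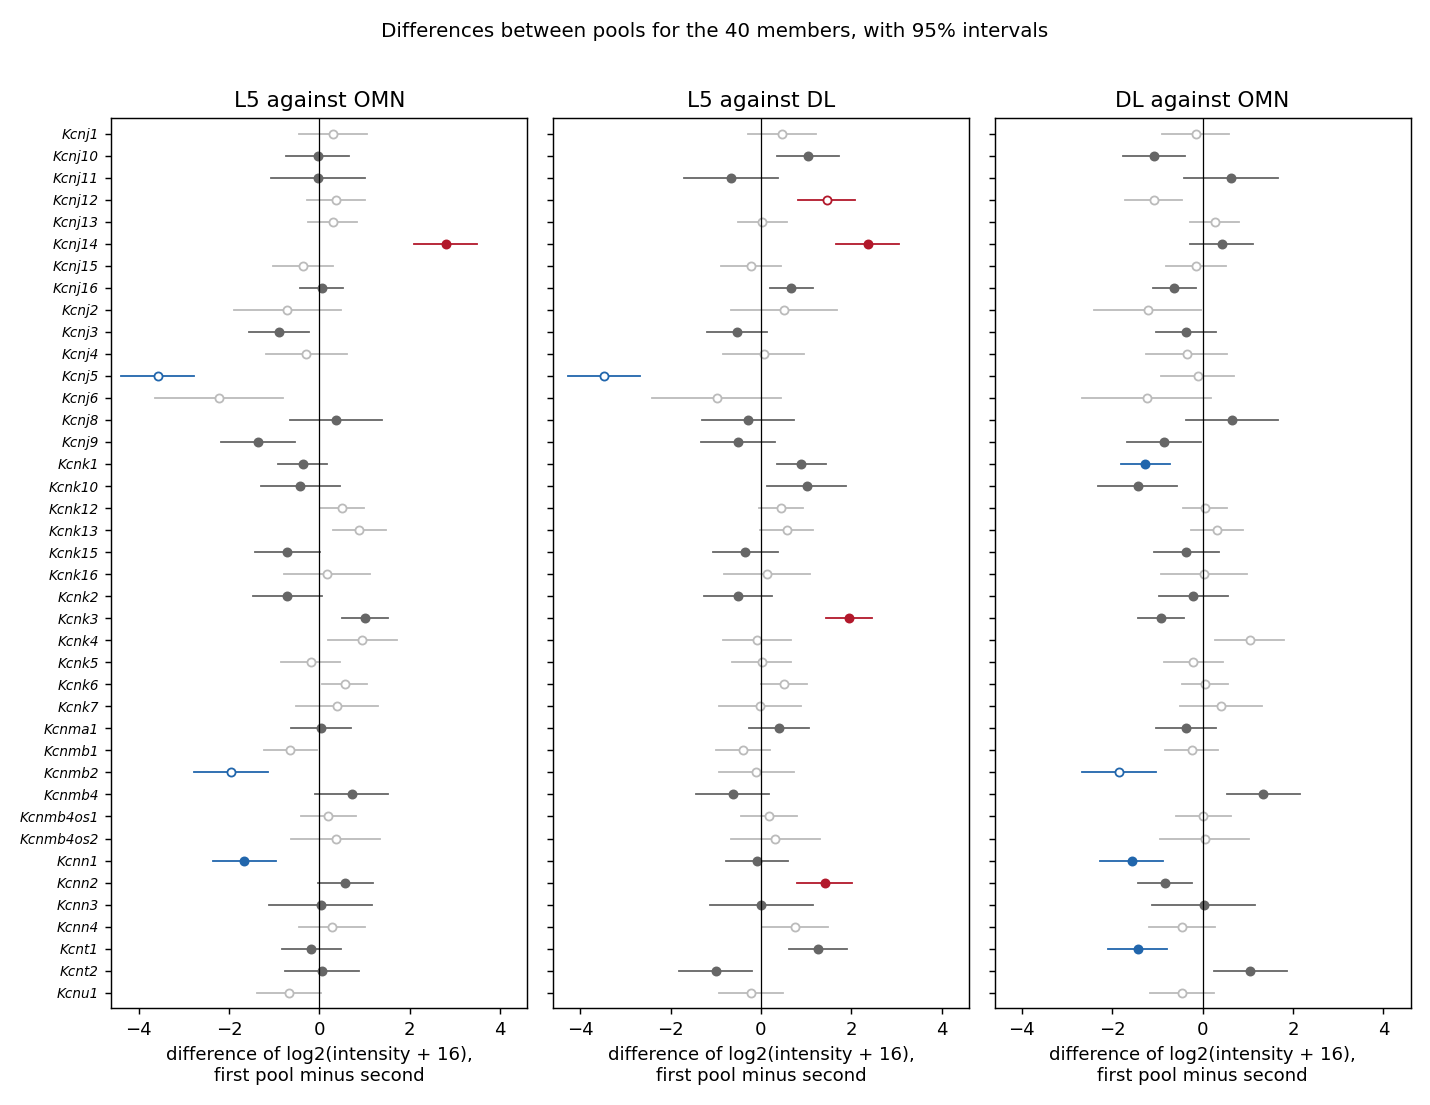
Differences of log2(intensity + 16) between pools for the 40 genes (rows), 1 panel per comparison, with points at the fitted difference and lines for its 95% interval. Red marks genes called higher in the first pool and blue genes called lower, filled points are genes above noise on all 9 arrays and open points the others; Kcnj5 at -3.58 and Kcnj14 at 2.79 in the first panel lie farthest from 0.

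Among the classical inward rectifiers (Kir2), which hold the resting potential near the potassium equilibrium, Kcnj14 separated L5 from both other pools. Kcnj14 encodes Kir2.4, a channel first described in motor neurons of cranial nerve nuclei. It read 2050.5, 1873.2 and 1994.7 on the L5 arrays, 359.4, 205.2 and 267.4 on the OMN arrays, and 299.8, 269.4 and 619.7 on the DL arrays. Every L5 array lay above every array of the other pools, while OMN and DL overlapped. The L5 mean was 7.11 times that of OMN (2.79 ± 0.30 SE on the log2 scale, limma adjusted p = 0.00611) and 4.98 times that of DL (2.37 ± 0.30, adjusted p = 0.0129). DL and OMN differed by 0.43 (95% interval -0.27 to 1.12, adjusted p = 0.564). The call against OMN was lost when L5 array 1, L5 array 2 or OMN array 2 was left out (adjusted p 0.0514 to 0.0548), and the call against DL without DL array 1 or any L5 array (0.0549 to 0.0841). After adding the Gapdh ratio to the fit, the difference from DL was 2.57 with an adjusted p of 0.0641.

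Kcnj12 encodes Kir2.2, a strong rectifier of the same subfamily. It read 87.7, 122.8 and 123.4 in L5, 103.5, 49.8 and 102.7 in OMN, and 34.6, 17.0 and 42.5 in DL, where array 2 was below noise. The L5 and OMN arrays overlapped, and all DL arrays lay under both. L5 was 3.55 times DL (1.45 ± 0.27, limma adjusted p = 0.0439), and the difference between DL and OMN (-1.09, 95% interval -1.72 to -0.45) did not pass (adjusted p = 0.0960). The L5 to DL call did not hold when any 1 of the 9 arrays was left out (adjusted p 0.0666 to 0.135) or after adding the Gapdh ratio to the fit (difference 1.54, adjusted p = 0.139). Kcnj2 (Kir2.1) varied within pools and exceeded noise on 3 of 9 arrays, with 74.5 on L5 array 1 and 142.6 and 72.5 on OMN arrays 1 and 2. Kcnj4 (Kir2.3) also exceeded it on 3, with values from 4.5 to 46.6.

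Of the 4 GIRK genes, Kcnj5 differed most. Kcnj5 encodes GIRK4, best known from the atrium of the heart, where it joins GIRK1 in the channel opened by vagal acetylcholine. It read 0.6, 14.0 and 0.9 in L5, 193.3, 245.6 and 247.2 in OMN, and 303.7, 268.2 and 109.8 in DL. All L5 arrays were under the noise level and all others well above it, and the OMN values fell inside the DL range. Kcnj5 was at least 12.4-fold lower in L5 than in OMN (-3.58 ± 0.34 on the log2 scale, limma adjusted p = 0.00375) and at least 11.3-fold lower than in DL (-3.47 ± 0.34, adjusted p = 0.00594). These bounds take the geometric mean of the brighter pool over the noise level. OMN and DL differed by -0.11 (95% interval -0.91 to 0.69). Both calls held whichever single array was left out (limma adjusted p at most 0.0394 against OMN and 0.04997 against DL, the latter just under the threshold). With DL reduced to array 2 the difference from DL was -3.47 and was no longer called. A second Kcnj5 probe set, with pool means of 8.07, 17.2 and 19.2 in L5, OMN and DL, lay near noise and was not called (adjusted p = 0.596 for L5 against OMN and 0.506 for L5 against DL). Further probe sets here and below were fitted in the same way with p adjusted over all 34945 probe sets that name 1 gene.

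RefSeq gives 1 start site for Kcnj5, on chromosome 9. The 250 bases before it (GRCm38.p6, chr9:32344345-32344594, minus strand, shown 5′ to 3′) are printed because this gene had the largest difference, with GC box letters (GGGCGG, either strand) in capitals.

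Kcnj5: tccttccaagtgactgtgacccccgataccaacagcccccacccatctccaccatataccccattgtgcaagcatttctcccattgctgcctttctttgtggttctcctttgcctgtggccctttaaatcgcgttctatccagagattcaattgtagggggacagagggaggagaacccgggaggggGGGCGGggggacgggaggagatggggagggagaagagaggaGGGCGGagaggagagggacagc

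The window holds 2 GC boxes and 7 CG pairs, against a median of 6 over 32851 RefSeq windows of this length, of which 32.7% hold a GC box. It has no match on either strand to a TATA box (TATAAA, in 12.4% of all windows), to a homeodomain core (TAATTA, in 4.84%) or to a nuclear receptor half-site (AGGTCA, in 14.0%). These are descriptions of letters in a window, and no binding was measured.

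The other GIRK genes were not called in any comparison. Kcnj3 encodes GIRK1, the partner that most GIRK channels contain; it ranged from 401.9 to 607.0 in L5, 765.7 to 1041.2 in OMN, with DL at 473.1 to 1032.6, so that L5 and OMN did not overlap (-0.90, 95% interval -1.57 to -0.24, limma adjusted p = 0.186). Kcnj6 encodes GIRK2, the main neuronal partner; it was at or below noise on every L5 array (0.9 to 6.9), from 38.1 to 123.4 in OMN and from 0.9 to 89.7 in DL. Its difference between L5 and OMN, -2.22, had an interval from -3.64 to -0.80 and did not pass (adjusted p = 0.138). Kcnj9 (GIRK3) ranged from 53.0 to 96.6 in L5 and 134.7 to 307.0 in OMN without overlap (-1.36, adjusted p = 0.123), with DL between 75.2 and 135.0. The fitted difference between L5 and OMN was below 0 for all 4 GIRK genes, 1 of them called, and for 19 of the 40 genes. Further Kcnj3 probe sets above noise on all arrays gave -1.36 and -0.30, with L5 and OMN overlapping in the latter. The brightest further Kcnj6 probe set gave -0.79, with 10.6 to 18.8 in L5 and 5.4 to 84.1 in OMN. Those of Kcnj9 gave -1.06, -0.07 and 0.25, the last at or below noise on all arrays. None of these passed.

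Partners of GIRK channels were read from 2 lists. Of 17 measured receptors that couple to Gi or Go proteins, 1 was called between L5 and OMN, 0 between L5 and DL by limma (3 at an unadjusted p under 0.05) and 3 between DL and OMN. Over all genes the shares called were 2.17%, 2.55% and 3.02% in the same order. Htr1d, a serotonin receptor, read 139.5, 178.2 and 46.5 in L5, 648.3, 790.4 and 937.2 in OMN, and 67.0, 75.4 and 58.2 in DL. OMN stood above both spinal pools without overlap, by 6.52-fold over L5 (-2.69 ± 0.37, adjusted p = 0.0176) and 11.8-fold over DL (-3.28 ± 0.37, adjusted p = 0.00587). Htr1a, the related autoreceptor of serotonin neurons, was 4.64-fold higher in DL than in OMN (adjusted p = 0.0398), and the adrenergic receptor Adra2c 3.16-fold higher (adjusted p = 0.0338).

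Of 18 G protein subunits and regulators, 1 was called in each comparison with L5 and 2 between DL and OMN, against 2.17% to 3.02% of all genes. Rgs4 speeds the shut-off of Gi and Gq signals. It read 2328.9, 1807.1 and 1675.7 in L5, 655.7, 662.9 and 647.2 in OMN, and 1570.3, 1748.4 and 1600.6 in DL, and both spinal pools lay above OMN without overlap (1.53 ± 0.19, adjusted p = 0.0122 for L5; 1.30 ± 0.19, adjusted p = 0.0168 for DL). Rgs6, a regulator known for ending GIRK currents, was 2.09-fold lower in DL than in OMN (adjusted p = 0.0435), and Gnb4, a G protein beta subunit, 2.40-fold lower in L5 than in DL (adjusted p = 0.0341).

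The KATP pore genes Kcnj8 (Kir6.1, known from vessel and mural cells) and Kcnj11 (Kir6.2, the neuronal and pancreatic form) were above noise on all arrays and not called. Kcnj8 ranged from 167.2 to 282.8 in L5, 92.7 to 306.3 in OMN, with DL at 229.3 to 443.7. Kcnj11 ranged from 73.4 to 91.6 over all L5 and OMN arrays, and in DL read 218.5 and 227.7 on arrays 1 and 2 and 49.1 on array 3. That spread within DL exceeded the difference between pools (L5 against DL -0.66, 95% interval -1.70 to 0.38). Without DL array 3, Kcnj11 was called higher in DL than in L5 (-1.34 for L5 minus DL, adjusted p = 0.0439) and than in OMN (1.31, adjusted p = 0.0374). The sulphonylurea receptors that complete these channels, Abcc8 and Abcc9, were not called in any comparison by limma (1 of them at an unadjusted p under 0.05 in each comparison with DL). Summed over 10 vessel and mural markers, intensity lay between 2802 and 3367 in L5, between 3365 and 4044 in OMN and between 3853 and 4797 in DL. None of the 10 was called in any comparison. Rgs5 was the brightest of them in each pool, and its mean was 2362 for DL, 1809 for OMN and 1553 for L5. The median difference over the 10 was -0.07 for DL minus OMN, -0.22 for L5 minus DL and -0.26 for L5 minus OMN. Abcc9 is itself among the 10, so the sum is not independent of the KATP genes.

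Kcnj10 (Kir4.1) and its partner Kcnj16 (Kir5.1) are best known from astrocytes, where they take up the potassium that firing neurons release. Both were above noise on all arrays. Kcnj10 ranged from 525.7 to 916.5 in L5, 583.0 to 947.7 in OMN, with DL at 247.4 to 531.0, and Kcnj16 from 737.9 to 901.0, 644.3 to 898.3 and 413.2 to 632.3. No comparison passed. Kcnj10 differed by -1.08 for DL minus OMN (95% interval -1.77 to -0.39, limma adjusted p = 0.119) and by 1.04 for L5 minus DL (0.35 to 1.73, adjusted p = 0.122), and among the alternatives both passed only in the fit with trend and robust variances (adjusted p = 0.0369 and 0.0380). For Kcnj16 the difference between L5 and DL was 0.67 (95% interval 0.19 to 1.15, adjusted p = 0.141), but the gene's other probe set, also above noise on all arrays, gave -0.29. The sum of 12 astrocyte markers lay between 28555 and 31818 in L5, between 24453 and 25356 in OMN and between 23445 and 26247 in DL. Single astrocyte markers moved against one another: the filament gene Gfap had mean intensities of 325 in L5 and 1550 in DL, with 12.2 to 22.7 on the OMN arrays, and was called in all 3 comparisons, whereas S100b was called higher in L5 than in DL. They were the called markers among the 12. How much of either signal came from glia captured with the neurons was not tested. Kcnj1 and Kcnj13, channels of kidney and other epithelia, exceeded noise on 2 and 4 arrays and reached at most 24.4 and 25.9.

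**Figure D2:**
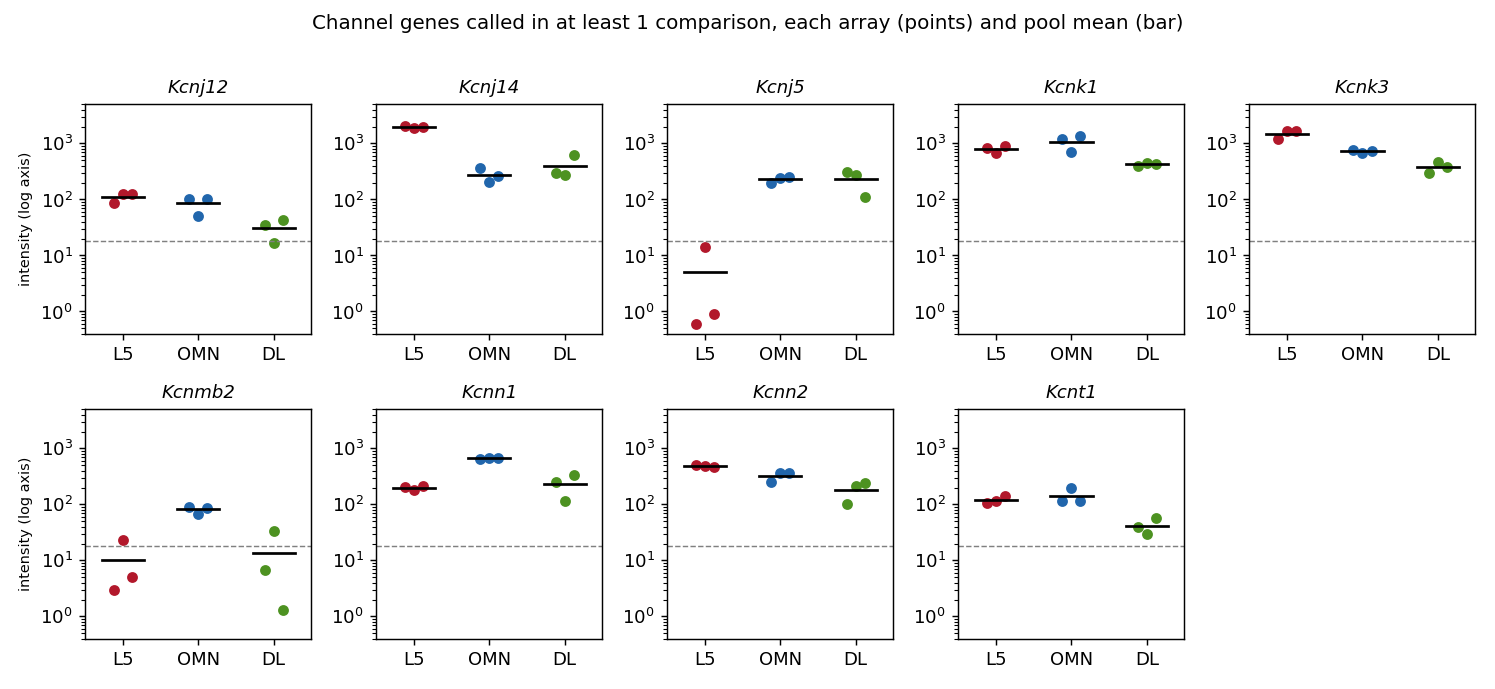
Intensity of the 9 called genes on each array (points, log axis) by pool, with the pool mean as a bar and the noise level of 18.3 as a dashed line. The L5 points stand apart above for Kcnj14 and below noise for Kcnj5, the OMN points stand apart above for Kcnn1 and Kcnmb2, and the DL points lie lowest for Kcnj12, Kcnk1, Kcnk3, Kcnn2 and Kcnt1.

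Of the two-pore leak channels, Kcnk3 and Kcnk1 were called. Kcnk3 encodes TASK-1, the acid-sensitive leak channel that motor neurons are known for. It read 1182.1, 1639.9 and 1692.1 in L5, 754.1, 686.8 and 740.2 in OMN, and 291.5, 475.7 and 381.5 in DL. The 3 pools did not overlap at all, with L5 highest and DL lowest. The L5 mean was 3.93 times that of DL (1.94 ± 0.22, limma adjusted p = 0.00906). The steps between neighbours, 1.02 from OMN to L5 (95% interval 0.51 to 1.53) and -0.92 for DL against OMN (-1.43 to -0.41), did not pass (adjusted p = 0.0730 and 0.0800). The call was lost without any 1 of the L5 arrays (adjusted p 0.0561 to 0.0670) and after adding the Gapdh ratio to the fit (difference 1.69, adjusted p = 0.0641). A second Kcnk3 probe set was also called between L5 and DL (2.45, adjusted p = 0.0382), and the third gave 0.42 (adjusted p = 0.352).

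Kcnk1 encodes TWIK-1, the founding channel of the family. It read 845.8, 669.3 and 891.3 in L5, 1180.0, 703.4 and 1333.0 in OMN, and 395.7, 441.7 and 428.9 in DL. All DL arrays lay below the others, and L5 and OMN overlapped. OMN was 2.54 times DL (-1.26 ± 0.23 for DL minus OMN, limma adjusted p = 0.0363), while L5 against DL (0.89, 95% interval 0.34 to 1.44) did not pass (adjusted p = 0.0995). The call held without DL array 2 and was lost without any other single array (adjusted p up to 0.165), after adding the Gapdh ratio to the fit (0.167, difference -0.92), after median centring (0.0660) and when DL was reduced to array 2 (0.301, difference -0.80). The gene's other probe set gave -1.24 (adjusted p = 0.104) for DL minus OMN and 1.60 (adjusted p = 0.0580) for L5 minus DL. For L5 minus OMN it gave 0.36, against -0.37 for the one used. L5 against DL was called with all probe sets averaged (1.25, limma adjusted p = 0.0474) and with trend and robust variances (0.0332).

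The other leak channels were not called. Kcnk2 (TREK-1) and Kcnk10 (TREK-2), opened by stretch and lipids, were above noise on all arrays. Kcnk2 ranged from 134.3 to 228.6 in L5 and 285.1 to 329.4 in OMN without overlap, and from 203.3 to 418.6 in DL. Kcnk10 ranged from 132.7 to 255.0 in L5, 167.2 to 282.8 in OMN, with DL at 47.8 to 118.6, so that DL lay below both (DL against OMN -1.44, 95% interval -2.31 to -0.56, adjusted p = 0.107; without L5 array 3, adjusted p = 0.0370). The gene's other probe set, dimmer and above noise on 8 arrays, gave 0.11 for DL minus OMN (adjusted p = 0.920). Kcnk15, a TASK relative that carries little current on its own, ranged from 30.0 to 90.9 over the 9 arrays. Kcnk4 (TRAAK) exceeded noise on 4 arrays, Kcnk7 on 2, and Kcnk12, Kcnk13 and Kcnk16 on 1 each, with 42.3 as the highest value among these 5.

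Gq-coupled receptors and other partners that act on leak channels made a list of 14 measured genes, chosen with earlier results of these data known. Between L5 and OMN 4 of them were called (2 in each direction), against 2.17% of all genes. Between L5 and DL 2 were called (both with L5 higher), against 2.55% of all genes. Between DL and OMN 4 were called (DL higher for 1 and OMN for 3), against 3.02% of all genes. Trhr, the receptor for thyrotropin-releasing hormone, read 2632.6, 2027.9 and 1693.2 in L5, 78.9, 105.2 and 148.2 in OMN, and 223.9, 472.0 and 240.9 in DL. Each pool stood clear of the next, and L5 was 19.1-fold above OMN (4.09 ± 0.34, limma adjusted p = 0.00254) and 6.78-fold above DL (2.76 ± 0.34, adjusted p = 0.0129). L5 had the highest mean for both Kcnk3 and Trhr, but Kcnk3 was not called between L5 and OMN (limma adjusted p = 0.0730). Of the other called receptors, Htr2c also had its highest mean in L5, and Chrm1, Chrm3, Grm5 and Tacr1 had theirs in OMN.

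Htr2c, a serotonin receptor, was 2.69-fold higher in L5 than in OMN (adjusted p = 0.0367) and 2.54-fold higher in DL than in OMN (adjusted p = 0.0363). Chrm1, a muscarinic receptor, went the other way: it read 8.2, 3.9 and 34.4 in L5, 506.8, 270.5 and 407.8 in OMN, and 28.7, 19.5 and 30.2 in DL. OMN stood above both, by -3.78 ± 0.29 for L5 minus OMN (adjusted p = 0.00155) and -3.25 ± 0.29 for DL minus OMN (adjusted p = 0.00235). The related Chrm3 was 3.06-fold lower in DL than in OMN (adjusted p = 0.0333), and Grm5, a glutamate receptor, 4.21-fold lower in L5 than in OMN (adjusted p = 0.0385). Tacr1, the substance P receptor, read 124.6, 114.1 and 102.3 in DL and 242.9 to 328.8 in the other pools. DL was thus lowest, 2.44-fold under L5 (adjusted p = 0.0228) and 2.58-fold under OMN (adjusted p = 0.0137).

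**Figure D3:**
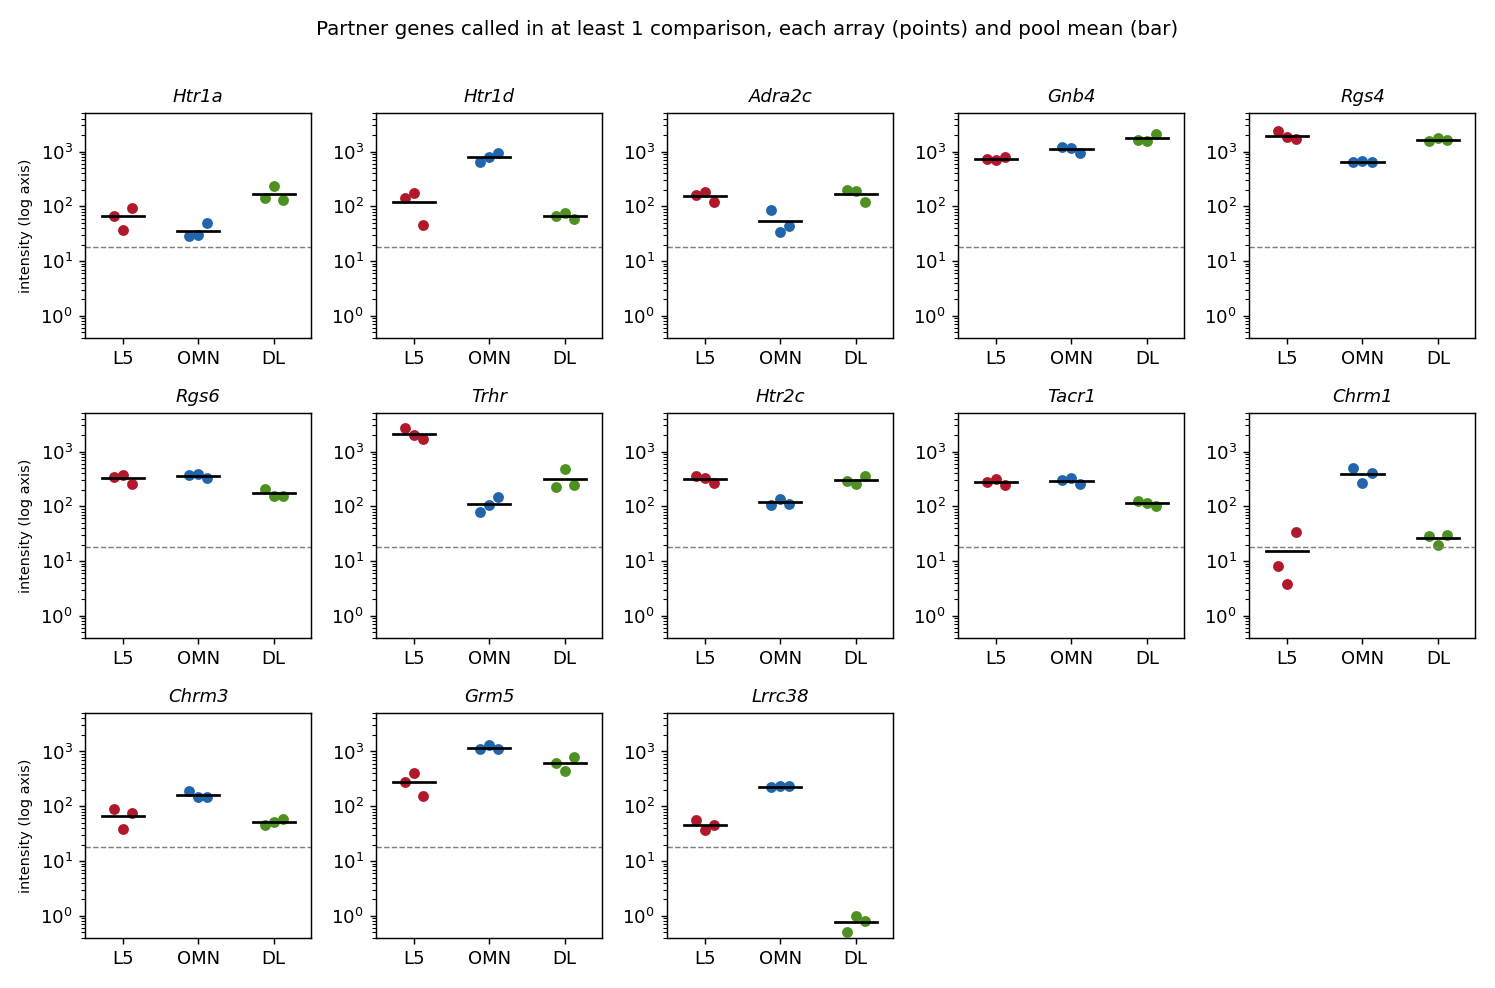
Intensity of the 13 partner genes called in at least 1 comparison, on each array (points, log axis) by pool, with the pool mean as a bar and the noise level as a dashed line. Trhr is highest in L5, Chrm1, Htr1d and Lrrc38 are highest in OMN, and the 3 DL points of Lrrc38 lie between 0.5 and 1.0.

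Among the BK genes, the pore subunit was not called and the accessory subunit Kcnmb2 was. Kcnma1 encodes the pore, and it read 1279.6, 1518.0 and 1047.5 in L5, 1309.7, 1190.8 and 1198.2 in OMN, and 696.0, 908.1 and 1362.6 in DL. All 3 pools overlapped. The difference between L5 and OMN was 0.04, with a 95% interval from -0.62 to 0.70, and those with DL had intervals from -0.25 to 1.07 for L5 minus DL and from -1.03 to 0.29 for DL minus OMN. A further Kcnma1 probe set read 578.5 to 736.8 in OMN, 428.5 to 517.1 in L5 and, in DL, from 322.1 to 506.5. OMN was highest there without overlap, but neither difference passed (L5 minus OMN -0.47, adjusted p = 0.357; DL minus OMN -0.74, adjusted p = 0.139).

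Kcnmb2 encodes the beta2 subunit, which gives BK channels inactivation. It read 2.9, 22.8 and 5.1 in L5, 91.3, 67.4 and 84.4 in OMN, and 6.7, 32.9 and 1.3 in DL. Only array 2 of each spinal pool passed noise, and every OMN array lay above every other array. With values under 18.3 raised to it, OMN was at least 4.08-fold above L5 (-1.95 ± 0.35 on the log2 scale, limma adjusted p = 0.0406) and at least 3.61-fold above DL (-1.85 ± 0.35, adjusted p = 0.0406). The call against L5 held when OMN array 2, DL array 2 or DL array 3 was left out and was lost without any other (adjusted p up to 0.187); that against DL held without OMN array 2 or DL array 2 alone (0.177 at most otherwise). After adding the Gapdh ratio to the fit, DL against OMN gave -1.26 with an adjusted p of 0.172. The other Kcnmb2 probe set gave -0.93 and -1.03 for the same comparisons, with 43.6 to 58.3 in OMN and 12.7 to 21.9 elsewhere, and was called between DL and OMN (adjusted p = 0.0467) but not between L5 and OMN (0.0871).

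Kcnmb4 encodes beta4, the main neuronal BK subunit, which slows channel opening. It ranged from 215.6 to 525.5 in L5, 194.8 to 258.2 in OMN, with DL at 423.8 to 791.0, so that DL and OMN did not overlap (1.34, 95% interval 0.53 to 2.15, adjusted p = 0.104). Its opposite-strand transcript Kcnmb4os2, whose start lies 360 bases away, exceeded noise on 4 arrays and reached 34.1. Kcnmb1, the smooth muscle subunit, exceeded noise on 1 array, at 25.6. Of 7 measured cofactors of BK and SK channels, 1 was called in each comparison, against 2.17% to 3.02% of all genes. It was Lrrc38 each time. Lrrc38 encodes a gamma subunit that lets BK channels open at less positive voltages.

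Lrrc38 read 56.8, 36.4 and 46.1 in L5, 223.2, 231.1 and 232.2 in OMN, and 0.5, 1.0 and 0.8 in DL. The 3 pools did not overlap, and every DL array was under noise. OMN was 4.93-fold above L5 (-1.98 ± 0.19, limma adjusted p = 0.00412) and at least 12.5-fold above DL (-3.87 ± 0.19, adjusted p = 0.000270), and L5 was at least 2.50-fold above DL (1.88 ± 0.19, adjusted p = 0.00695). Both Kcnmb2 and Lrrc38 were thus highest in OMN, while no Kcnma1 probe set gave a call.

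Of the SK genes, which encode channels gated by calmodulin, Kcnn1 and Kcnn2 were called, with OMN highest for the first and L5 for the other. Kcnn1 (SK1) read 200.9, 183.7 and 215.3 in L5, 653.8, 681.9 and 660.6 in OMN, and 252.0, 114.4 and 328.3 in DL. Every OMN array lay above all others, and the L5 values fell inside the DL range. OMN was 3.33 times L5 (-1.66 ± 0.30, limma adjusted p = 0.0400) and 2.87 times DL (-1.57 ± 0.30, adjusted p = 0.0395). The call against L5 held without DL array 2 or DL array 3 and was lost without any other single array (adjusted p up to 0.187), and that against DL held without DL array 3 alone (otherwise up to 0.166). With DL reduced to array 2 the difference from OMN was -2.35 (adjusted p = 0.0490). The other Kcnn1 probe set gave -1.11 and -1.07 and was not called (adjusted p = 0.233 and 0.212).

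Kcnn2 (SK2) read 501.0, 494.1 and 467.8 in L5, 253.7, 368.5 and 357.6 in OMN, and 101.4, 215.2 and 235.9 in DL. The pools did not overlap, with L5 highest and DL lowest. L5 was 2.65 times DL (1.41 ± 0.26, limma adjusted p = 0.0415), and OMN did not differ past the threshold from L5 (0.57, 95% interval -0.03 to 1.18) or from DL (-0.83, -1.44 to -0.23, for DL minus OMN). The call did not hold when any single array was left out (adjusted p 0.0642 to 0.139) or after adding the Gapdh ratio to the fit (difference 1.42, adjusted p = 0.147). Kcnn3 (SK3), a form known from slow motor neurons, overlapped in all pools: 123.0 to 281.0 in L5, 118.8 to 326.9 in OMN, with DL at 139.2 to 276.9. Its difference between L5 and DL was 0.01, with an interval from -1.13 to 1.15. Kcnn4, the intermediate-conductance channel of blood cells and microglia, exceeded noise on 6 arrays and reached 39.1.

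The genes that bring calcium to these channels made a list of 12 measured members: voltage-gated calcium channels, ryanodine receptors and the junctophilins that hold them together. By limma 0 of 12 were called in any of the 3 comparisons, against 2.17% to 3.02% of all genes. At an unadjusted p under 0.05, 2 differed between L5 and OMN, 4 between L5 and DL and 2 between DL and OMN.

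Kcnmb2 and Kcnn1 were the genes called higher in OMN than in both spinal pools, and the 250 bases before their RefSeq starts are shown for that reason (GRCm38.p6, 5′ to 3′, GC box letters in capitals). Kcnmb2 has 1 start (chr3:31902453-31902702, plus strand) and Kcnn1 has a pair (chr8:70857009-70857258 and chr8:70863259-70863508, minus strand).

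Kcnmb2: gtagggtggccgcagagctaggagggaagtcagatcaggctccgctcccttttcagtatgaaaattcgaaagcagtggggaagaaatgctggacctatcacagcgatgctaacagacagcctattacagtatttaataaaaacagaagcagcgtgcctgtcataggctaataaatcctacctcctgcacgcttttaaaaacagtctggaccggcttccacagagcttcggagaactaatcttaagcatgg

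Kcnn1, first window: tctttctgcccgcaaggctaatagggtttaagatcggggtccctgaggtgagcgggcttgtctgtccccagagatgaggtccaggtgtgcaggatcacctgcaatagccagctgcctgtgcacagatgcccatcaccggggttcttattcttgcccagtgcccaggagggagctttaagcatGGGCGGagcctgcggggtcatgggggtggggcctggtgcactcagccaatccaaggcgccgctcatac

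Kcnn1, other window: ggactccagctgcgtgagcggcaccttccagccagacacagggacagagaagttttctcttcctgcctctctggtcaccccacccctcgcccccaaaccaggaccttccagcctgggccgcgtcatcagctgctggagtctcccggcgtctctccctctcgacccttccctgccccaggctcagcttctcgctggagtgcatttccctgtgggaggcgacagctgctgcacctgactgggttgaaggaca

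The Kcnmb2 window holds none of the letters searched and 8 CG pairs. The first Kcnn1 window holds 1 GC box and 8 CG pairs, and the other none and 10 CG pairs. Windows were found for 32 of the 40 genes, 41 in all, and 18 of the 41 held a GC box (43.9%, against 32.7% of all RefSeq windows), 3 held a TATA box, 2 a nuclear receptor half-site and 0 a homeodomain core.

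Of the sodium-activated channels, Kcnt1 was called and Kcnt2 was not. Kcnt1 encodes Slack, which opens with sodium that enters during spikes. It read 106.7, 113.2 and 140.6 in L5, 115.8, 194.2 and 113.1 in OMN, and 38.8, 29.3 and 56.3 in DL. All DL arrays were under all others, and L5 and OMN overlapped. OMN was 3.40 times DL (-1.44 ± 0.28 for DL minus OMN, limma adjusted p = 0.0419), and L5 against DL (1.26, 95% interval 0.61 to 1.91) did not pass (adjusted p = 0.0677). The call did not hold when any single array was left out (adjusted p 0.0663 to 0.147), after adding the Gapdh ratio to the fit (difference -1.84, adjusted p = 0.0531) or with all probe sets of the gene averaged (0.479). The other Kcnt1 probe sets gave 0.16 and -0.28 between DL and OMN. Between L5 and OMN they gave 2.01 (limma adjusted p = 0.175) and 0.26, against -0.18 for the one used. The first of them read 204.3, 139.4 and 47.0 in L5, 13.9, 38.4 and 4.2 in OMN, and 23.0, 4.3 and 41.7 in DL. There L5 lay above both other pools without overlap, and OMN and DL overlapped.

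Kcnt2 encodes Slick, the close relative of Slack. It read 81.1, 120.2 and 201.5 in L5, 107.8, 94.0 and 172.3 in OMN, and 299.1, 323.9 and 200.6 in DL. DL lay above OMN without overlap and met L5 at the top of the L5 range (DL against OMN 1.06, 95% interval 0.25 to 1.87, adjusted p = 0.187). Without DL array 3 the difference was 1.53 and was called (adjusted p = 0.0402). Kcnu1 encodes Slo3, a channel of sperm. It read 26.0, 30.9 and 17.2 in L5, 50.7, 50.6 and 44.0 in OMN, and 37.5, 14.2 and 47.4 in DL, near the noise level, and was not called.

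Over the 19 genes above noise on all arrays, the pool with the highest mean was OMN for 10, L5 for 5 and DL for 4, and the lowest was DL for 9, L5 for 6 and OMN for 4. The highest pool mean was a median of 2.20 times the lowest. Neither this ratio nor the order of pools was counted over all genes, so they have no background. The median intensity of an array was 26.4 to 29.7 in DL and 32 to 35.5 in L5 and OMN. The SD of log2 intensity over the 3 arrays of a pool had a median of 0.28 in L5, 0.36 in OMN and 0.50 in DL over these genes, against 0.24, 0.21 and 0.35 over the 10293 genes above noise on all arrays. DL array 3 lay more than 2-fold from the mean of the other DL arrays for Kcnj11, Kcnj14 and Kcnk10, DL array 1 for Kcnn2 and DL array 2 for Kcnn1. Among L5 and OMN arrays such departures from the mean of a pool's other arrays were found for Kcnmb4, Kcnt2, Kcnj8, Kcnk15 and Kcnn3.

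**Figure D4:**
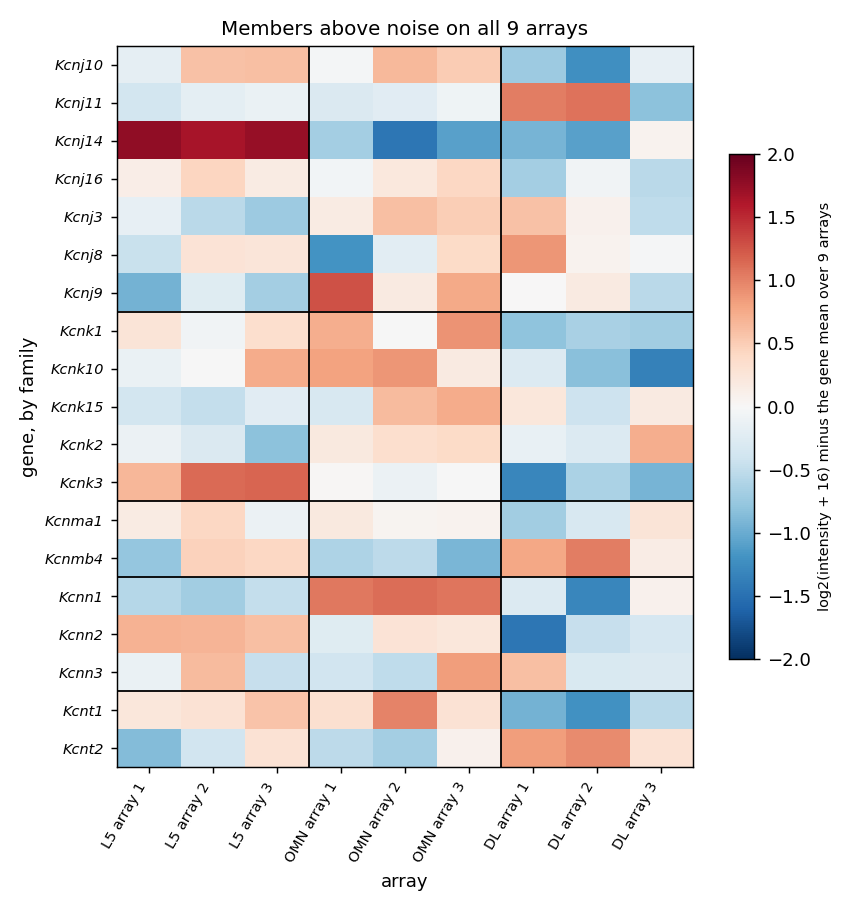
Relative level of the 19 genes above noise on all 9 arrays, as log2(intensity + 16) minus the gene's mean over the arrays, with genes as rows grouped by family and arrays as columns grouped by pool. Red is above and blue below the gene's mean; the 3 L5 columns are red for Kcnj14 and the 3 OMN columns for Kcnn1.

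Several probe sets measured 19 of the 40 genes. For 10 of them the further probe sets were bright enough to compare, 14 in all, and these gave the same sign as the one used in 7 of 14 cases between L5 and OMN and in 11 of 14 in each comparison with DL. Kcnj9 and Kcnj10 start 11.9 kb apart on chromosome 1. Their differences were -1.36 and -0.04 between L5 and OMN, -0.50 and 1.04 between L5 and DL, and -0.86 and -1.08 between DL and OMN. Neither gene was called in any of these.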

How the data were processed

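The authors deposited 1 table of intensity values on a linear scale, with 45101 probe sets on each of 9 arrays, and the mean of every array after removal of 2% at each end was 250. The software used was not given in the sources used here. Such scaling carries no information on RNA per cell, and the number of arrays limits the precision. Probe sets were named from the platform annotation, in which 34945 named 1 gene, 932 several and 9160 none. A gene was represented by its brightest probe set on average.

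Intensities were converted to log2(intensity + 16), which understates the differences of dim genes, and fitted in R 4.3.3 with limma 3.58.1 (lmFit, contrasts.fit, eBayes), with a term for pool and a block for the number in each sample title; p was adjusted over 18193 genes. The noise level was chosen after values had been seen. Where a pool lay at or below 18.3 on all 3 arrays, a fold is a lower bound. The fit was also run on simulated data in which each gene had the same spread on all arrays, and the outcome is not given here. DL arrays spread more (median SD 0.35, against 0.24 in L5 and 0.21 in OMN), so the simulation cannot judge the calls against DL. Values were given on every array for each called gene and for the gene with the highest mean in each of the 6 families, and for partner lists the called genes, at most 4 per list and comparison. The genes and lists were chosen with earlier results of these data known. The alternatives were the pseudocount (1 or 64), a filter on dim genes, quantile normalization, median centring, averaged probe sets, 2 pools only, the Gapdh ratio as a covariate, trend and robust variances, no block, and each array left out. Promoter windows came from RefSeq (GRCm38.p6) and were searched with Python 3.11.15.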

Additional observations from a re-analysis of the deposited data

How the results depend on the processing

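No call changed direction under the 19 alternative settings; over the 13 calls these gave 247 values, of which 139 stayed past the threshold and 108 did not. Kcnj5 kept its call in all 19 between L5 and OMN and in 18 between L5 and DL, where a pseudocount of 1 gave an adjusted p of 0.0541. Kcnj14 kept its call against OMN in 16 and against DL in 12, Kcnk3 in 13, and the other 8 in 4 to 11. The counts of called channel genes were 4 between L5 and OMN, 5 between L5 and DL and 4 between DL and OMN. With a pseudocount of 1 they were 2, 0 and 0 (13, 15 and 14 at an unadjusted p under 0.05). With only the 2 pools compared, which leaves fewer arrays to estimate the spread in each comparison, they were 5, 1 and 0. In the last comparison 13 genes had an unadjusted p under 0.05. Why the counts fell only in the comparisons with DL was not tested. With the Gapdh ratio as a covariate they were 4, 1 and 1. Between DL and OMN quantile normalization gave 2, median centring 1, and trend with robust variances 7; the cause was not tested. Median centring moved the median difference of all genes between DL and OMN from -0.04 to 0.11. Leaving out each array in turn gave 1 to 4, 1 to 4 and 0 to 3, with 1 array fewer to estimate the spread. An alternative chosen after seeing the data, DL as array 2 alone, gave 5, 0 and 1 (11 at an unadjusted p under 0.05 between L5 and DL), and assumes that the lone array varies like the others. Kcnj6, not called in the report, passed between L5 and OMN with only those pools compared (0.0461) and with trend and robust variances (0.0345). Over all genes the pseudocount of 1 called 103, 61 and 200 in place of 394, 464 and 550, and trend with robust variances 946, 1153 and 880. Without the replicate block the counts were 5, 6 and 4, with Kcnk3 gained between L5 and OMN (adjusted p = 0.0454) and Kcnt1 between L5 and DL (0.0296). Deviations of equally numbered arrays from their pool means correlated at -0.05 to 0.05 (median -0.00329), and those of other pairs at -0.07 to 0.04, so that the data do not show that the numbers pair the arrays. Groups of 3 arrays were too small to look for single outlying values.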
